A study of Mus musculus with 12 samples.

Results

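Insulin and insulin-like growth factor (IGF) axis genes were followed in mouse liver, as 10 genes out of the 17742 that the array measured. The 10 were taken by gene symbol: Igf1 and Fgf21 as secreted ligands, Igfals, Igfbp1, Igfbp2 and Igfbp4 as carriers of IGF, Insr as receptor, Irs1 and Irs2 as its adaptors, and Foxo1 as the transcription factor that insulin restrains. All 10 were found, and where a gene had several probes the brightest over the 12 arrays stood for it. Igf1 was the member with more than 1 probe, and its 2 probes disagreed. The study set 3 groups of mouse livers against each other. The STZ+MENS group held livers of mice with diabetes induced by STZ (streptozotocin, a toxin of the insulin-producing beta cells) that were then given MENS, a treatment the labels do not spell out, applied with a printed circuit board that a MENS device powers, 1 h a day on 5 days of each week for 6 weeks. The STZ group held livers of mice with STZ diabetes and no MENS, and the control group livers of mice with no treatment. The labels used here give no strain, sex, genotype, STZ dose or measure of diabetes. They put every mouse at 8 weeks of age without saying at which point of the study. Each group had 2 samples, and each sample was read on 2 arrays.

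Insulin binds its receptor on the hepatocyte, and the receptor phosphorylates adaptor proteins of the IRS family, which start the PI3K and AKT cascade. AKT holds FOXO1 out of the nucleus. When insulin is lacking, FOXO1 enters the nucleus and drives genes of glucose production together with Igfbp1 and Irs2. The liver is also the main source of circulating IGF1, which growth hormone induces through STAT5. In blood most IGF1 travels in a complex with a binding protein and the acid-labile subunit that Igfals encodes.

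Total RNA was hybridised to single-colour oligonucleotide arrays, and levels are given on the log2(intensity + 50) scale, on which a difference of 1 is a doubling for bright genes and understates the change of dim ones. Array medians lay between 768.89 and 770.33. Across genes, the 2 arrays of a sample correlated at 0.986 to 0.996, samples of the same group at 0.976 to 0.988 and samples of different groups at 0.958 to 0.985. The liver label was checked against hepatocyte markers. Of 7 listed markers 6 were measured, and each stood at or above percentile 93.9 of the probes on every array, with albumin (Alb) never below an intensity of 460013. Nothing in the labels ties a sample to a separate animal, and the p-values therefore cover only the spread between these 6 samples, which may be technical. In bulk tissue, fewer cells of a type and less RNA per cell cannot be told apart. The number of samples limits the precision, and with 2 samples in each of 2 groups the smallest p an exact permutation test allows is 0.333.

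No member passed the threshold in any comparison, an adjusted p (Benjamini-Hochberg over all genes) under 0.05 in limma. Across all genes 0.00564% passed between STZ and control livers, 0% between STZ+MENS and STZ livers, and 0.00564% between STZ+MENS and control livers. At an unadjusted p under 0.05, the STZ against control comparison held 1 of the 10 members, Igfbp2, which was higher, against 17% of all genes (8.48% higher and 8.49% lower). The STZ+MENS against STZ comparison held 3 members, with Igfbp4 and Fgf21 higher and Igfals lower, against 25.4% of all genes (12.6% higher and 12.8% lower). The STZ+MENS against control comparison held 1 member, again Igfbp2, which was higher, against 18% of all genes (8.82% higher and 9.18% lower). In these comparisons, taken in the same order, 6, 5 and 4 of the 10 members had groups whose samples were fully separate, against 52.1%, 57.9% and 48.6% of all genes. These shares are close to those of all genes, or below them. The median difference over the members was -0.11, 0.08 and 0.10 on the log2 scale, against -0.02, 0.06 and 0.02 over all genes. With 1 sample left out at a time, 24 of the 30 member differences moved by over 1.5 times or changed sign. Ranges are given below for some of these differences, not for all. In what follows, higher and lower describe group means, and a value after ± is the standard error of a difference from the limma fit.

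Igf1 (chromosome 10, 87858265 to 87937047, GRCm38.p6), the growth hormone target that the liver releases into blood, gave a different picture on each of its probes. The brighter probe, with a mean intensity of 26122 over the 12 arrays, read 14.65 and 14.13 in the STZ+MENS samples, 14.86 and 14.66 in the STZ samples, and 14.94 and 14.68 in the control samples. On that probe the STZ and control samples overlapped, and both STZ+MENS samples lay below all the others, the higher of them narrowly. STZ livers differed from control livers by -0.05 ± 0.22 (adjusted p = 0.933), with a 95% interval of -0.57 to 0.47. STZ+MENS livers differed from STZ livers by -0.37 ± 0.22 (adjusted p = 0.33) and from control livers by -0.42 ± 0.22 (adjusted p = 0.361). Without STZ+MENS sample 1 these 2 differences were -0.63 and -0.68, and without STZ+MENS sample 2 they were -0.11 and -0.16.

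The dimmer Igf1 probe, with a mean intensity of 9175, read 12.51 and 11.86 in the STZ+MENS samples, 11.47 and 11.45 in the STZ samples, and 14.09 and 14.46 in the control samples. In intensity, its arrays ran from 3091 to 6446 in STZ+MENS livers, from 2708 to 2819 in STZ livers and from 17352 to 22733 in control livers. The 3 groups did not overlap on this probe: control livers were far above the rest, STZ livers lowest, and STZ+MENS livers a little above STZ livers. In a fit over all 26423 probes, STZ livers were lower than control livers by 7.06-fold, a log2 difference of -2.82 ± 0.25 with a 95% interval of -3.43 to -2.21. That probe ranked 7 of 26423 by p and still missed the threshold after adjustment (adjusted p = 0.0817), which 0.00378% of probes passed. STZ+MENS livers were higher than STZ livers by 0.73 ± 0.25 (1.65-fold, adjusted p = 0.160). They remained lower than control livers by 4.27-fold, a log2 difference of -2.09 ± 0.25 (adjusted p = 0.127). In the fit over 17742 genes with this probe standing for Igf1, the adjusted p was 0.0627, 0.145 and 0.111. Over the alternatives to that fit that keep every sample, it ran from 0.000107 to 0.112 for STZ against control. For STZ+MENS against STZ it ran from 0.0467 to 0.319, and for STZ+MENS against control from 0.00112 to 0.199. Each lowest value came from a fit of all 12 arrays, where 6.79%, 17.4% and 7.53% of all genes passed. No sign changed over 16 alternatives, though several of them cannot move a difference. The dimmer probe was singled out after its values had been seen.

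The distance between the 2 Igf1 probes was itself unusual for this array. The STZ against control difference on the dimmer probe minus that on the brighter probe was -2.77, larger in size than the difference between the brightest and dimmest probe in 99.8% of the 2278 genes with several probes. Their median distance was 0.274, and 4 of them had a larger one. For STZ+MENS against STZ the distance was 1.10, with opposite signs on the probes, and for STZ+MENS against control it was -1.67. Averaging both probes gave -1.43 for STZ against control (adjusted p = 0.0968), 0.18 for STZ+MENS against STZ and -1.26 for STZ+MENS against control (adjusted p = 0.115). Thus the size of the Igf1 difference, and for STZ+MENS against STZ its sign, depended on the probe. The annotation used here does not say which transcripts or exons each probe reads, and the reason for the disagreement was not tested.

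**Figure D1:**
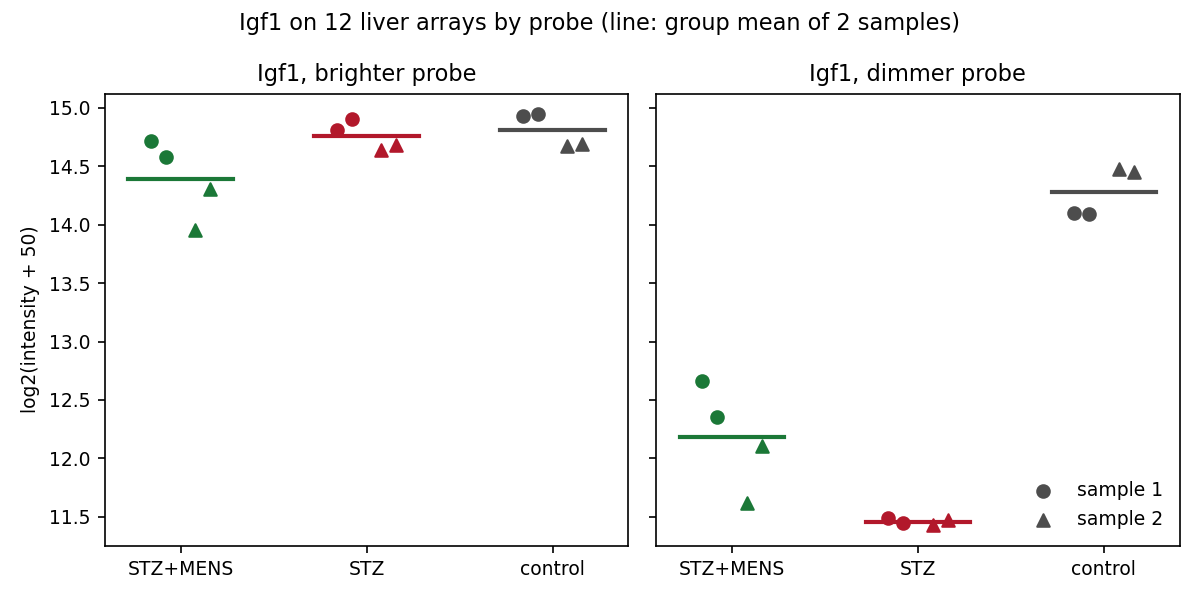
Igf1 on each of its 2 probes, in log2(intensity + 50), with a point per array, circles for sample 1 and triangles for sample 2, and a line at each group mean. On the brighter probe the group means lie between 14.39 and 14.81; on the dimmer probe they are 12.19 in STZ+MENS livers, 11.46 in STZ livers and 14.28 in control livers.

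Fgf21 (chromosome 7, 45613890 to 45615490) encodes a hormone that the liver releases on fasting and under amino acid or mitochondrial stress. It read 10.49 and 10.07 in the STZ+MENS samples, 9.73 and 9.78 in the STZ samples, and 9.86 and 10.23 in the control samples. Both STZ samples were the lowest of the 6, and the STZ+MENS and control samples overlapped. In intensity the samples ran from 805.5 to 1391, not far above the array medians of 769 to 770. How much of this is background was not tested. STZ+MENS livers were higher than STZ livers by 0.52 ± 0.20 (1.44-fold, adjusted p = 0.179). Against control livers, STZ livers differed by -0.29 ± 0.20 (adjusted p = 0.528), with an interval of -0.78 to 0.21. The STZ+MENS against STZ difference was 0.31 with STZ+MENS sample 1 left out and 0.74 with sample 2 of that group left out, and the STZ against control difference was -0.47 without control sample 1 and -0.10 without control sample 2. The promoter of Fgf21 is shown because the stress factor ATF4 is known to act on this gene. The 250 bases before its RefSeq start (chr7:45615491-45615740, minus strand, GRCm38.p6) hold 1 match to TGATGNAA, the ATF4 composite element, on the strand opposite to the gene, in capitals.

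Fgf21 promoter: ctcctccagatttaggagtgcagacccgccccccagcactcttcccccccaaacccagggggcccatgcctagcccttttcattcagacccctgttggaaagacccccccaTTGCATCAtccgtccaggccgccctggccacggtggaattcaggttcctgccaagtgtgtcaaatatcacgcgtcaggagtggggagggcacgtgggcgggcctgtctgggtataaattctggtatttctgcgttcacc

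The match lies 139 to 132 bases before the start, and 3.45% of the 32851 mouse promoter windows of that length hold the same motif on either strand. A match is a description of the letters, not a bound site.

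Igfals (chromosome 17, 24877844 to 24882011), the acid-labile subunit that holds IGF in its long-lived blood complex, read 9.99 and 9.52 in the STZ+MENS samples, 10.79 and 10.40 in the STZ samples, and 9.78 and 10.58 in the control samples. The STZ+MENS samples lay below both STZ samples, and the control samples spanned most of the range. The probe was dim, with samples from 693 to 1725 in intensity, against array medians of 769 to 770. The part of background in this signal was not tested. STZ+MENS livers were lower than STZ livers by 1.79-fold, a log2 difference of -0.84 ± 0.31 (adjusted p = 0.168). For Igfals, STZ livers differed from control livers by 0.41 ± 0.31 (adjusted p = 0.553) and STZ+MENS livers from control livers by -0.42 ± 0.31 (adjusted p = 0.534). These 2 differences rested on single control samples: they were 0.0125 and -0.83 without control sample 1, and 0.82 and -0.0221 without control sample 2. The arrays of 1 sample differed by up to 0.68 for this gene. Igfals is a target of growth hormone through STAT5. Of its 3 RefSeq windows, 2 hold TTCNNNGAA, the STAT site, which reads the same on both strands and occurs in 7.02% of all windows. The matches are shown in capitals with 10 bases on each side, from chr17:24877598-24877626 and chr17:24878163-24878191 on the plus strand.

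Igfals, window 1: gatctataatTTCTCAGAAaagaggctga
Igfals, window 2: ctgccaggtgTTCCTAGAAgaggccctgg

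The first match lies 236 to 228 bases before its RefSeq start and the second 58 to 50 bases before another start of the gene. The second window also holds GTAAACA, the FOXO element, on the opposite strand 242 to 236 bases before the start, a motif found in 3.17% of all windows.

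Igfbp1 (chromosome 11, 7197787 to 7202546), a binding protein whose transcription insulin suppresses within hours through FOXO1, was the most variable member. It read 13.26 and 15.02 in the STZ+MENS samples, 14.78 and 14.71 in the STZ samples, and 14.68 and 13.15 in the control samples. Both STZ samples were high and alike, while STZ+MENS and control livers each held 1 high and 1 low sample. The gap between the 2 samples was 1.76 in STZ+MENS livers and 1.52 in control livers, larger in each than that of 99.3% of genes, against 0.06 in STZ livers. STZ livers differed from control livers by 0.83 ± 0.67 (adjusted p = 0.582), with an interval of -0.81 to 2.47. That difference was 1.59 without control sample 1 and 0.0684 without control sample 2. STZ+MENS livers differed from STZ livers by -0.60 ± 0.67 (adjusted p = 0.615) and from control livers by 0.23 ± 0.67 (adjusted p = 0.899). Without STZ+MENS sample 1 these were 0.28 and 1.11, and without STZ+MENS sample 2 they were -1.48 and -0.65. The intervals take in both no difference and a large one in either direction. The Igfbp1 promoter is shown because it carries the classical insulin response element. In the 250 bases before the start (chr11:7197537-7197786, plus strand), CAAAACA, the core of that element, is in capitals.

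Igfbp1 promoter: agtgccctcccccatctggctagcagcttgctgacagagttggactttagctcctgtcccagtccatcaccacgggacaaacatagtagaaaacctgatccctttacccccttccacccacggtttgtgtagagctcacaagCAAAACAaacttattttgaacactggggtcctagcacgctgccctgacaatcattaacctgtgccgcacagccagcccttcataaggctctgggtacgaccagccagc

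The Igfbp1 match lies 108 to 102 bases before the start on the gene's strand, and 5.56% of all windows hold this core on either strand.

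Igfbp2 (chromosome 1, 72824480 to 72852474), a binding protein known to be raised in liver when insulin is low or food is withheld, had the smallest p of the members between STZ and control livers when the brightest probe stood for each. It read 16.07 and 16.59 in the STZ+MENS samples, 16.26 and 16.51 in the STZ samples, and 15.45 and 15.91 in the control samples. All 4 diabetic samples lay above both control samples, and the STZ+MENS and STZ samples overlapped. STZ livers were higher than control livers by 0.71 ± 0.25 (1.63-fold, adjusted p = 0.237). STZ+MENS livers were higher than control livers by 0.65 ± 0.25 (1.57-fold, adjusted p = 0.249), and by 0.91 with STZ+MENS sample 1 left out and 0.39 with sample 2 of that group left out. STZ+MENS livers differed from STZ livers by -0.06 ± 0.25 (adjusted p = 0.909), with an interval of -0.66 to 0.54. The comparisons of both diabetic groups share the same control samples.

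Igfbp4 (chromosome 11, 99040005 to 99052655) encodes a binding protein that inhibits IGF action until it is cleaved by pappalysin. It read 18.23 and 18.07 in the STZ+MENS samples, 17.76 and 17.56 in the STZ samples, and 17.97 and 18.00 in the control samples. The 3 groups did not overlap, with STZ+MENS livers highest, control livers in between and STZ livers lowest. STZ+MENS livers were higher than STZ livers by 0.49 ± 0.15 (1.40-fold, adjusted p = 0.120), with an interval of 0.13 to 0.85. STZ livers differed from control livers by -0.33 ± 0.15 (adjusted p = 0.334) and STZ+MENS livers from control livers by 0.16 ± 0.15 (adjusted p = 0.625). The intervals of both these differences include 0, and the last ran from 0.0785 without STZ+MENS sample 1 to 0.24 without STZ+MENS sample 2. With all 12 arrays in the fit and their correlation within samples estimated, the STZ+MENS against STZ difference passed (adjusted p = 0.0107). It was 1 of the 10 members to do so, against 17.4% of all genes in that fit, and over its 17 alternatives the adjusted p reached 0.335. In the same fit 0 members passed between STZ and control livers, against 6.79% of all genes, and 0 between STZ+MENS and control livers, against 7.53%.

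**Figure D2:**
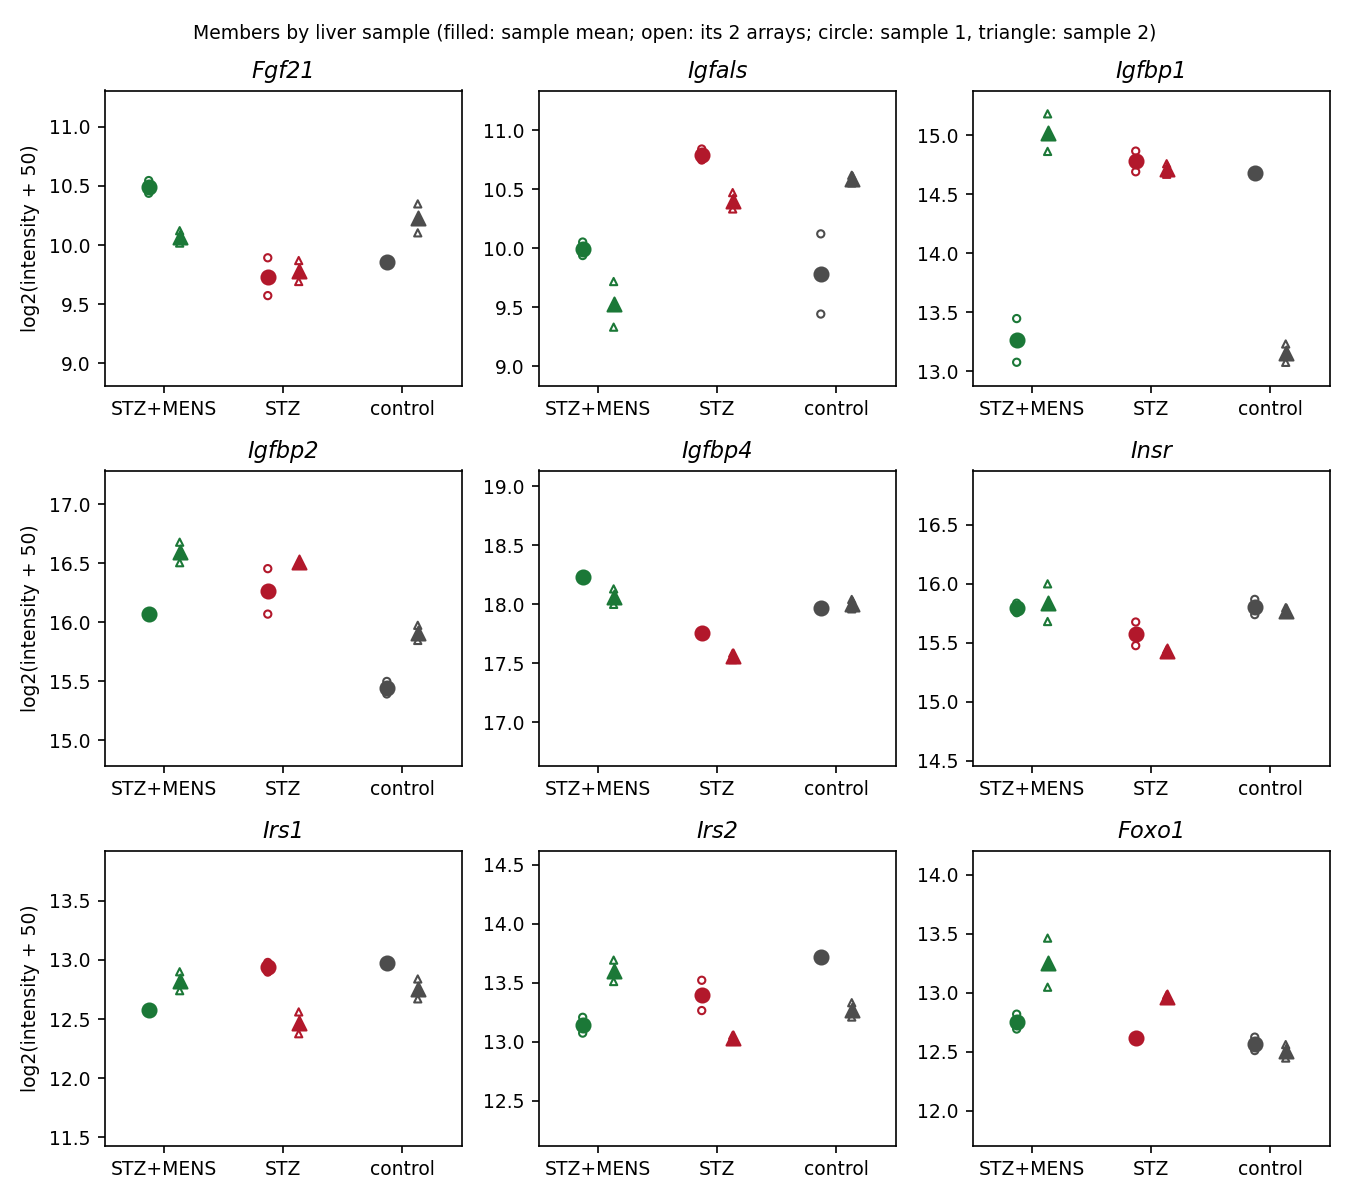
Levels of 9 members by liver sample in log2(intensity + 50), with STZ+MENS, STZ and control livers from left to right; filled marks are sample means, open marks the 2 arrays of a sample, and every panel spans the same number of log2 units. Igfbp1 splits within STZ+MENS and control livers, Igfbp2 lies at or above 16.07 in all 4 diabetic samples against 15.91 or less in control livers, and Igfbp4 is lowest in both STZ samples.

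Insr (chromosome 8, 3150922 to 3279649), the insulin receptor, varied least between samples. It read 15.79 and 15.84 in the STZ+MENS samples, 15.57 and 15.43 in the STZ samples, and 15.80 and 15.77 in the control samples. Both STZ samples were the lowest of the 6, and STZ+MENS and control samples overlapped. STZ livers differed from control livers by -0.28 ± 0.14 (adjusted p = 0.359), and STZ+MENS livers differed from STZ livers by 0.31 ± 0.14 (adjusted p = 0.214). STZ+MENS livers differed from control livers by 0.03 ± 0.14 (adjusted p = 0.937), with an interval of -0.30 to 0.36.

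The adaptors Irs1 (chromosome 1, 82233105 to 82291439) and Irs2 (chromosome 8, 10984681 to 11008929) carry the signal from the receptor to PI3K, and Irs2 is the form that liver insulin signalling is known to switch most between fasting and feeding. Irs1 read 12.58 and 12.82 in the STZ+MENS samples, 12.94 and 12.47 in the STZ samples, and 12.97 and 12.75 in the control samples. Irs2 read 13.14 and 13.60 in the STZ+MENS samples, 13.39 and 13.03 in the STZ samples, and 13.72 and 13.27 in the control samples. For both adaptors every pair of groups overlapped. Irs1 differed by -0.16 ± 0.21 (adjusted p = 0.746) between STZ and control livers and by -0.00 ± 0.21 (adjusted p = 0.994) between STZ+MENS and STZ livers. Irs2 differed by -0.28 ± 0.25 (adjusted p = 0.611) between STZ and control livers and by 0.16 ± 0.25 (adjusted p = 0.722) between STZ+MENS and STZ livers. The intervals of the STZ against control differences, -0.66 to 0.34 for Irs1 and -0.88 to 0.31 for Irs2, leave room for a moderate difference in either direction. With single samples left out these differences ran from -0.40 (without STZ sample 1) to 0.0749 (without STZ sample 2) for Irs1, and from -0.51 (without control sample 2) to -0.0593 (without control sample 1) for Irs2. Their promoters are shown because both hold the core of the insulin response element, as Igfbp1 does. They lie at chr1:82291440-82291689 for Irs1 and at chr8:11008930-11009179 for Irs2, both on the minus strand. The capitals mark CAAAACA read on the opposite strand.

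Irs1 promoter: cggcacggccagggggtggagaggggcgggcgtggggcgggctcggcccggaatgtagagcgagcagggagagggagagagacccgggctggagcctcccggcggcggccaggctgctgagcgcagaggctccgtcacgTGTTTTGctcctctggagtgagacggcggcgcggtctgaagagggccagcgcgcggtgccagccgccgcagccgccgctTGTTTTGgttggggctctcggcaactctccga
Irs2 promoter: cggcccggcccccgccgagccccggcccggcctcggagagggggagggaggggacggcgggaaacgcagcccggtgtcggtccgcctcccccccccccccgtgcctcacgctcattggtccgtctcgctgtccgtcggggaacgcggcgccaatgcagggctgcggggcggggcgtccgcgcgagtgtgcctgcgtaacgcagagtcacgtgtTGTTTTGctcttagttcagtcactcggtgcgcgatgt

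Irs1 holds the core at 111 to 105 and at 32 to 26 bases before its start, and Irs2 at 37 to 31 bases before its start. Windows were at hand for 9 of the 10 members, 12 windows in all, and 5 members held at least 1 of the 4 motifs searched on both strands (the FOXO element, the core of the insulin response element, the STAT site and the ATF4 element). Igfbp1, Irs1 and Irs2 share the CAAAACA core, and none of the 3 passed the threshold in any comparison. Their levels were not tested against each other.

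Foxo1 (chromosome 3, 52268337 to 52350109) read 12.76 and 13.26 in the STZ+MENS samples, 12.62 and 12.96 in the STZ samples, and 12.57 and 12.50 in the control samples. Both diabetic groups lay above control livers and overlapped each other. STZ+MENS livers differed from control livers by 0.47 ± 0.22 (adjusted p = 0.318), with an interval of -0.05 to 0.99. STZ livers differed from control livers by 0.25 ± 0.22 (adjusted p = 0.601), and STZ+MENS livers from STZ livers by 0.22 ± 0.22 (adjusted p = 0.572). The STZ+MENS against control difference was 0.72 with STZ+MENS sample 1 left out and 0.22 with sample 2 of that group left out, and the STZ against control difference was 0.43 without STZ sample 1 and 0.0819 without STZ sample 2. The array measures Foxo1 RNA, while insulin acts on FOXO1 mainly through its phosphorylation.

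**Figure D3:**
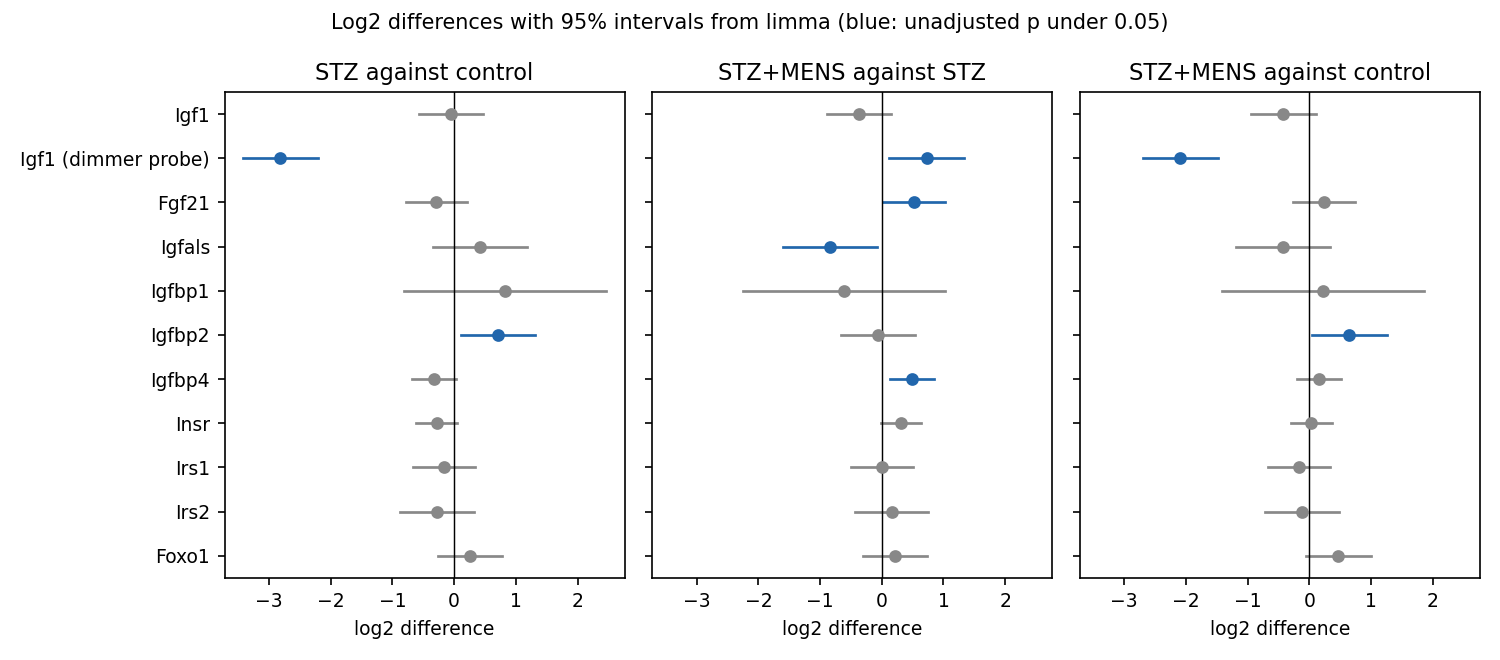
Log2 differences of the 10 members and of the dimmer Igf1 probe with 95% intervals from limma, with a panel per comparison and blue for an unadjusted p under 0.05. The dimmer Igf1 probe stands at -2.82 for STZ against control and -2.09 for STZ+MENS against control, while no other difference is larger than 0.84 in size.

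Further genes of the axis were followed in 6 lists that also hold members, and no listed gene passed the threshold in limma. Their counts at an unadjusted p under 0.05 are to be read against the shares of all genes given above. Among the IGF ligands, carriers and proteases, 19 of 19 listed genes were measured. At an unadjusted p under 0.05, 2 were higher and 1 lower in STZ against control livers, with a list median of 0.07. In STZ+MENS against STZ livers, 1 was higher and 2 were lower, with a median of -0.16, and for STZ+MENS against control livers 1 was higher and 2 were lower, with a median of 0.11. Igfbp6, a carrier that prefers IGF2, was higher in STZ than in control livers by 1.03 ± 0.32 (adjusted p = 0.2). It was dim, at 8.44 and 7.76 in the STZ samples and 7.40 and 6.76 in the control samples. Its signal was not told apart from background. Stc1, stanniocalcin, an inhibitor of pappalysin, differed by -0.59 ± 0.19 (adjusted p = 0.211) between STZ and control livers and by -0.76 ± 0.19 (adjusted p = 0.139) between STZ+MENS and control livers. Its other probe, which was dim, differed by -0.25 ± 0.27 and 0.28 ± 0.27. Igf2bp2, an RNA-binding protein that associates with Igf2 messenger RNA, was lower in STZ+MENS than in STZ livers by 2.97-fold, a log2 difference of -1.57 ± 0.48 (adjusted p = 0.12). Igf2 itself averaged 12.56 in both STZ+MENS and STZ livers and 11.45 in control livers, with all 4 diabetic samples above both control samples, and differed from control by 1.11 ± 0.52 in each (adjusted p = 0.328 and adjusted p = 0.352). Igfbp3, the main carrier of IGF1 in blood, differed by 0.07 ± 0.22 between STZ and control livers and by -0.30 ± 0.22 between STZ+MENS and STZ livers, with overlap in both.

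Of the insulin and IGF receptors and adaptors, 24 of 26 listed genes were measured. At an unadjusted p under 0.05, 0 were higher and 1 was lower in STZ against control livers, 2 were higher and 4 lower in STZ+MENS against STZ livers, and 1 was higher and 3 were lower in STZ+MENS against control livers. The list medians were -0.00, -0.01 and -0.04. Grb10, an adaptor that dampens insulin receptor signalling, read 14.44 and 13.86 in the STZ+MENS samples, 13.40 and 13.39 in the STZ samples, and 13.92 and 14.21 in the control samples. Its STZ samples lay below all others, by -0.67 ± 0.22 against control livers (adjusted p = 0.223), and STZ+MENS livers were higher than STZ livers by 0.76 ± 0.22 (adjusted p = 0.115). Ptpn11, the phosphatase SHP2, was lower in STZ+MENS than in STZ livers by 1.62-fold, a log2 difference of -0.69 ± 0.15 (adjusted p = 0.0695). Enpp1, an inhibitor of the insulin receptor, differed by -0.60 ± 0.16 (adjusted p = 0.0992) in the same comparison. Igf1r, the IGF1 receptor, which hepatocytes are known to carry at low levels, read between 10.99 and 11.09 in all 6 samples and differed by 0.01 ± 0.13 between STZ and control livers.

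Of the PI3K, AKT and mTOR genes, 28 of 32 were measured, and STZ+MENS against STZ livers held 7 higher and 2 lower at an unadjusted p under 0.05, with a list median of 0.13 against 0.06 over all genes. STZ against control livers held 1 higher and 2 lower, with a median of -0.05, and STZ+MENS against control livers held 5 higher and 2 lower, with a median of 0.15. Pik3cd, a catalytic subunit of PI3K best known from white blood cells, was higher in STZ+MENS than in STZ livers by 0.93 ± 0.16 (1.90-fold, adjusted p = 0.0595). Lymphocyte markers, all 5 measured, had 1 higher at an unadjusted p under 0.05 and a median of 0.25 in the same comparison, and their mean level was 9.48 and 9.24 in the STZ+MENS samples, against 9.14 and 9.08 in the STZ samples. Their part in the Pik3cd difference was not tested. Tsc1, a brake on mTOR complex 1, was higher in the same comparison by 0.57 ± 0.14 (adjusted p = 0.0886), and Rptor, a subunit of that complex, by 0.55 ± 0.16 (adjusted p = 0.108). Pik3r1, the main regulatory subunit of PI3K, averaged 13.56 in STZ+MENS livers, 13.86 in STZ livers and 14.37 in control livers, and STZ+MENS livers were lower than control livers by a log2 difference of -0.81 ± 0.19 (adjusted p = 0.132). Members of this list that were higher thus included both activators and inhibitors of the cascade.

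Of the FOXO factors and their known targets, 26 of 27 were measured. STZ against control livers held 3 higher and 0 lower at an unadjusted p under 0.05, with a list median of 0.14 against -0.02 over all genes. STZ+MENS against STZ livers held 0 higher and 3 lower, with a median of -0.04, and STZ+MENS against control livers held 3 higher and 2 lower, with a median of 0.01. G6pc, the last enzyme of glucose production, read 12.96 and 13.08 in the STZ+MENS samples, 15.68 and 14.86 in the STZ samples, and 14.18 and 13.22 in the control samples. The STZ samples were above, and the STZ+MENS samples below, all others. STZ livers were higher than control livers by 1.57 ± 0.38 (2.97-fold, adjusted p = 0.154), and STZ+MENS livers were lower than STZ livers by 4.74-fold, a log2 difference of -2.25 ± 0.38 (adjusted p = 0.0595). Klf15, a factor that promotes glucose production from amino acids, differed by -0.98 ± 0.19 (adjusted p = 0.0663) between STZ+MENS and STZ livers. Angptl4, a lipoprotein lipase inhibitor, was higher in STZ than in control livers by 0.85 ± 0.19 (adjusted p = 0.143). The other FOXO factors Foxo3 and Foxo4 differed by 0.10 ± 0.23 and -0.02 ± 0.14 in that comparison. Both were dim, from 6.92 to 7.58 for Foxo3 and from 7.29 to 7.46 for Foxo4 over the 6 samples. At such levels the scale understates a change.

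Of the growth hormone axis, 15 of 19 listed genes were measured. STZ against control livers held 1 higher and 4 lower at an unadjusted p under 0.05, with a list median of -0.05; STZ+MENS against STZ livers held 1 higher and 2 lower, with a median of 0.00; STZ+MENS against control livers held 1 higher and 2 lower, with a median of -0.19. Ghr, the growth hormone receptor, read 17.87 and 17.37 in the STZ+MENS samples, 16.94 and 17.15 in the STZ samples, and 17.94 and 17.92 in the control samples. STZ livers were lower than control livers by 1.84-fold, a log2 difference of -0.88 ± 0.20 (adjusted p = 0.143), and STZ+MENS livers were higher than STZ livers by 0.58 ± 0.20 (adjusted p = 0.148). Its next brightest probe differed by -0.62 ± 0.19 and 0.39 ± 0.19 in these comparisons, and its dimmest probe by 0.01 ± 0.19 and 0.41 ± 0.19. Cish, a feedback inhibitor that growth hormone induces, differed between STZ and control livers by -2.33 ± 0.75 (adjusted p = 0.212), and Socs1, of the same family, by -0.40 ± 0.15 (adjusted p = 0.266). Trim24, a nuclear receptor cofactor, differed by 1.04 ± 0.35 (adjusted p = 0.227). Between STZ+MENS and control livers Cish differed by -2.03 ± 0.75 (adjusted p = 0.24). For Ghr (brightest probe), Cish and the dimmer Igf1 probe both STZ samples lay below both control samples. For the brighter Igf1 probe and for Igfals the groups overlapped. In this comparison 8 of the 15 measured list genes had fully separate samples, in either direction, against 52.1% of all genes.

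Of the FGF21 axis, 20 of 23 listed genes were measured. STZ against control livers held 7 higher and 3 lower at an unadjusted p under 0.05, with a list median of 0.05 against -0.02 over all genes. STZ+MENS against STZ livers held 5 higher and 5 lower, with a median of -0.24, and STZ+MENS against control livers held 5 higher and 0 lower, with a median of 0.05. Gdf15, a stress hormone, read 11.46 and 13.04 in the STZ+MENS samples, 13.80 and 13.79 in the STZ samples, and 10.74 and 10.41 in the control samples. STZ livers were higher than control livers by 3.22 ± 0.48 (9.33-fold, adjusted p = 0.0926). Trib3, an inhibitor of AKT induced by ATF4 and CHOP, was higher in STZ than in control livers by 2.66 ± 0.53 (6.32-fold, adjusted p = 0.125). Acot1, an acyl-CoA thioesterase induced by PPAR alpha, was higher by 2.40 ± 0.22 in the same comparison (5.29-fold, adjusted p = 0.0654), and by 1.63 ± 0.22 in STZ+MENS against control livers (adjusted p = 0.111). Of the 20 genes, 10 were higher and 10 lower by their means in STZ against control livers. The genes above were named for a small p. Atf4, Ddit3 and Asns, of the stress pathway that also induces Trib3, were named after their values were seen. They overlapped between these groups and differed by -0.12 ± 0.16, -0.05 ± 0.25 and -0.18 ± 1.36 in that comparison. Asns read 13.28 and 9.81 in the control samples. Its interval, -3.48 to 3.12, leaves room for a large difference in either direction. Mlxipl, the carbohydrate response factor ChREBP, was higher in STZ+MENS than in STZ livers by 0.95 ± 0.22 (adjusted p = 0.0758). Klb, the co-receptor that FGF21 needs, differed by -0.16 ± 0.25 between STZ and control livers.

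**Figure D4:**
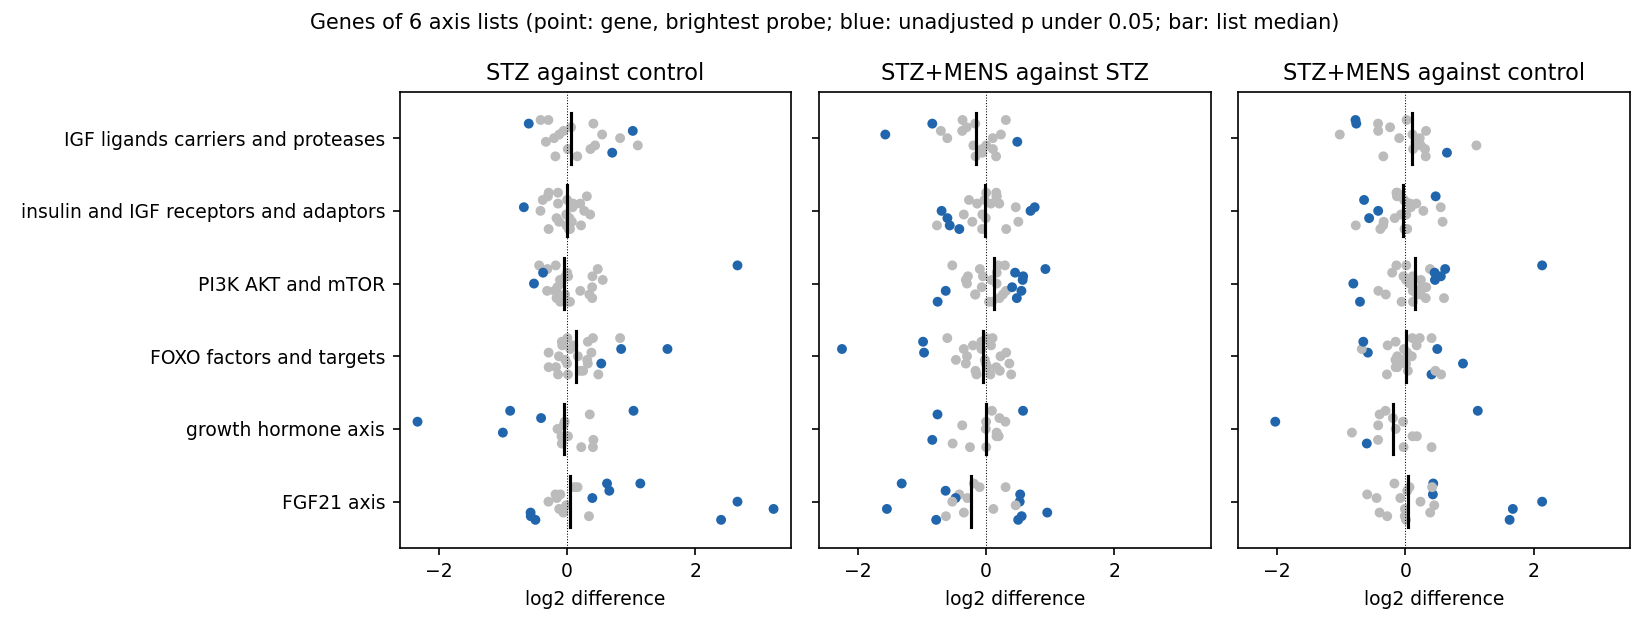
Log2 differences of the measured genes of 6 axis lists, with a row per list, a panel per comparison, a point per gene, blue for an unadjusted p under 0.05 and a bar at the list median. The list medians lie between -0.24 and 0.15, while single genes reach 3.22 for STZ against control livers and -2.25 for STZ+MENS against STZ livers.

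For the 3 members with the smallest F-test p over the 3 groups, the genes whose 6 sample levels ran most alike were picked from 1341 genes, so high correlations follow from the choice and carry no test. Igfbp4 ran most like Tmem25 (Pearson r 0.989), Bik (0.967) and Slc13a2 (0.967), which share its order of group means. Igfbp2 ran most like Ezh2 (0.993), Txk (0.984) and Tob2 (0.976), all lowest in control livers. Igfals ran most like Pptc7 (0.926), Fam151b (0.917) and Ap1ar (0.903), all highest in STZ livers.

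Markers of other liver cells moved in part with the groups. Cholangiocyte markers, all 7 measured, had 3 higher at an unadjusted p under 0.05 in STZ against control livers and a median of 0.36. Their summed intensity was 22658 and 17824 in the STZ+MENS samples, 25368 and 19777 in the STZ samples, and 16542 and 16097 in the control samples. The diabetic samples were thus all above control, as they were for Igfbp2 and Foxo1. Spp1, with a mean intensity of 14029, weighs most in this sum. Kupffer cell markers, all 6 measured, summed to 33604 and 54020 in the STZ+MENS samples. The sums lay between 29820 and 30814 in STZ livers and between 29582 and 33775 in control livers. Clec4f and Cd5l, with mean intensities of 19418.5 and 11483.5, weigh most in them. In STZ+MENS against STZ livers 1 marker was higher and 1 lower at an unadjusted p under 0.05, with a median of -0.12. Against control livers the counts were the same, with a median of 0.12. By its sum, STZ+MENS sample 2 stood apart. It was the higher sample of its group for Insr, Irs1, Irs2, Igfbp1, Igfbp2 and Foxo1, and the lower for Igf1 (brighter probe), Igfals, Igfbp4 and Fgf21. Of 6 erythroid markers 2 were measured, Alas2 and Slc4a1. Their sum was 104836 and 9330 in the STZ+MENS samples, 32621 and 55363 in the STZ samples, and 79641 and 95699 in the control samples. Alas2, with a mean intensity of 62301 against 614 for Slc4a1, makes up nearly all of it. Hepatocyte markers summed to 1909310 and 2021000 in the STZ+MENS samples, 1890800 and 1901630 in the STZ samples, and 2156760 and 2134030 in the control samples. All 4 diabetic samples were below both control samples, with a median of -0.16 over the 6 measured markers in STZ against control livers and 0 of them at an unadjusted p under 0.05. Pancreas markers, 4 of 6 measured, also summed lower in the diabetic samples. The sums were 17266 and 21632 in the STZ+MENS samples, 23793 and 19448 in the STZ samples, and 42391 and 42578 in the control samples. Cela1, with a mean intensity of 23123.5, weighs most in them. In STZ against control livers 1 was higher and 1 lower at an unadjusted p under 0.05, with a median of -0.13. For STZ+MENS against control livers the median was 0.10. Lymphocyte markers summed to 6042 and 5159 in the STZ+MENS samples, 4951 and 4810 in the STZ samples, and 6666 and 5689 in the control samples. Both STZ samples were the lowest of the 6, as they were for Igfbp4, Insr and Fgf21. The sums of sinusoidal endothelial markers, 5 of 6 measured, were also lowest in both STZ samples, at 59735 and 52461. They were 78604 and 61375 in the STZ+MENS samples and 71335 and 61804 in the control samples. Clec4g, with a mean intensity of 43004, weighs most in these sums. The mean log2 level of these markers, 12.55 and 12.57 in the STZ samples, was lower in control sample 2 (12.46). In STZ against control livers 0 of the 5 were at an unadjusted p under 0.05, with a median of -0.12. Sums of stellate cell and neutrophil markers overlapped between every pair of groups. The part of these cells in the differences was not tested.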

How the data were processed

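Liver RNA of 6 samples in 3 groups was measured on 12 single-colour Phalanx Mouse OneArray v2 arrays, 2 per sample. The deposited values are linear probe intensities that the authors had already normalized: apart from the 1000 lowest, sorted values spanned at most 6.31% of their mean across arrays, and 44 to 52 of the 26423 probes per array lay below 0 (lowest -73.94). How background and arrays were adjusted is not stated in the sources used here. Per the submitters' processing notes, limma 3.30.7 was used, for a step they do not name. No column was left out.

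Values below 0 were set to 0 and log2(intensity + 50) was taken from the deposited intensities. Probes were named from the platform annotation: 20377 had 1 symbol and 6046 were unnamed here. Through a RefSeq gene table (GRCm38.p6), 18213 carried a current symbol, 2126 were matched by synonym and 38 kept the platform name. The brightest probe by mean intensity stood for each of 17742 genes. Arrays of a sample were averaged, and the 6 samples entered 1 limma model (limma 3.58.1, R 4.3.3, lmFit and eBayes) of group means (3 residual and 3.19 prior degrees of freedom). Tests were two-sided, with Benjamini-Hochberg adjustment over all genes and a threshold of 0.05. Values after ± are SEs of differences, and means are given without SDs. The fit was tested on simulated data. Coordinates and promoter letters come from RefSeq tables of GRCm38.p6. Figures were drawn with matplotlib 3.10.9.

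All 10 members were named. From each list and comparison, up to 4 further genes of smallest p whose samples did not overlap could be named, plus relatives of members. Like genes needed a mean intensity of 200 and a range of group means of 1. Members, lists and tests were chosen with earlier results of these data known. Alternatives tried were the offset, the probe rule, a filter on dim probes, array handling, a 2-group fit, a replicate block, renormalization, a trended prior and each sample left out. Sample numbers 1 and 2 give the order within a group and are not the submitters' own numbers. Samples of the same order did not deviate together (correlations 0.00496, -0.0306 and -0.0702), so they were not taken as pairs. The submitters' numbers are shared only between STZ+MENS and control samples, where the correlation was -0.0306.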

Additional observations from a re-analysis of the deposited data

How the results depend on the processing

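Of 510 alternative values of the 30 member differences, 18 changed sign, 1 passed the threshold newly and 491 kept direction and call; 19 of the 30 never changed sign. Many of these values could not change sign. The fit of all 12 arrays, the 2-group fit, the replicate block, the trended prior and the dim filter leave a member difference as it was. So do leaving out a sample of the group not compared and, for members with 1 probe, averaging probes. Such values say nothing on how firm a direction is. The comparisons are given as STZ against control, STZ+MENS against STZ and STZ+MENS against control. Genes past the threshold, 1, 0 and 1, became 1204, 3079 and 1336 with all 12 arrays and an estimated correlation within samples, where Igfbp4 (0.49, STZ+MENS against STZ) was the 1 member to pass. They became 4, 0 and 3 on array 1 of each sample, 0, 30 and 0 on array 2, 2, 0 and 2 with an offset of 10, 0, 0 and 0 with 200, and 181, 0 and 2 with the 2 groups alone. Leaving out samples gave 0 to 181, 0 to 1759 and 0 to 12 genes, and 1812 to 3506, 2389 to 5167 and 1803 to 3719 genes at an unadjusted p under 0.05, against 3012, 4509 and 3193 with every sample. Members at an unadjusted p under 0.05, 1, 3 and 1, became 2, 4 and 3 with 12 arrays, 3, 4 and 1 with an offset of 200, 2, 3 and 2 with the mean over probes, 2, 3 and 1 with a trended prior, 1, 2 and 0 on array 2, 1, 3 and 0 with the 2 groups alone, and 0 to 2, 1 to 3 and 0 to 3 without single samples. All genes at an unadjusted p under 0.05 were 21.6%, 31.3% and 22.6% with 12 arrays, 17.1%, 26.2% and 18.9% with an offset of 200, and between 12.8% and 21.6%, 21.8% and 31.3%, and 15.4% and 22.6% over the 11 alternatives that keep every sample. With the replicate block, 1, 1 and 2 members were at an unadjusted p under 0.05, against 15.4%, 22.7% and 16.2% of all genes. The sample numbers do not pair the samples by the labels.

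The dimmer Igf1 probe, chosen after seeing the data, gave 2, 4 and 2 members. Igf1 for STZ+MENS against STZ turned to 0.73 on that probe and 0.18 with both averaged. On the dimmer probe the Igf1 difference kept its sign over 16 alternatives in each comparison. It lay between -3.01 and -2.63, between 0.40 and 1.05, and between -2.42 and -1.77. The settings named above that cannot move a difference are among them. With all 12 arrays in limma, its adjusted p was under 0.05 in each comparison (0.000107, 0.0467 and 0.00112). There 6.79%, 17.4% and 7.53% of all genes passed. With the 2 groups alone it was under 0.05 only for STZ against control (0.0110). Irs1 for STZ+MENS against STZ turned to 0.0608 on array 2, and Insr for STZ+MENS against control to -0.0484 on array 1. Leaving out samples took STZ against control from -0.18 to 0.0762 for Igf1 and from -0.40 to 0.0749 for Irs1. It took STZ+MENS against STZ from -0.24 to 0.23 for Irs1, -0.0704 to 0.39 for Irs2, -1.48 to 0.28 for Igfbp1, -0.32 to 0.21 for Igfbp2 and -0.0344 to 0.46 for Foxo1. It took STZ+MENS against control from -0.35 to 0.11 for Irs2 and from -0.65 to 1.11 for Igfbp1. Fewer samples were fitted there; for the other settings the cause was not tested. A lone sample left in a group is assumed to vary like the others. Precision is limited by 2 samples a group.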
